A study of Mus musculus with 8 samples.

Results

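The end state compared here is that of mouse splenic B cells given CpG plus LPS, PMA and ionomycin, against naive B cells. Of the 8 libraries of the series, 5 were chosen by their titles: 3 of naive B cells (the naive group) and 2 of the regulatory B cell preparation named for Toll-like receptor stimulation (the TLR group). All cells came from spleens of C57BL/6 mice (labelled B6). TLR cells had been cultured for 3 days with CpG ODN1668, and LPS, PMA and ionomycin were present over the last 5 hours. The other 3 libraries, of cells given CpG alone for 3 days (the CpG group), are shown to place a level between the start and the end. They were also part of the shared fit behind the tests. Naive cells carry no treatment in the labels, and no untreated cells cultured for the same time are among the samples, so culture and stimulation cannot be told apart. The labels do not say whether libraries came from separate animals or cultures, and the p-values below measure only the spread between these libraries.

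Regulatory B cells are B cells that dampen immune responses, above all by secreting the cytokine IL-10. CpG DNA is sensed by TLR9 in endosomes and LPS by TLR4 at the cell surface, and both receptors activate NF-kB and MAP kinases. PMA activates protein kinase C directly and ionomycin lets calcium into the cell, so that together they bypass the antigen receptor and drive AP-1 and NFAT, the factors that switch on many cytokine genes. Activated B cells are known to grow, divide and leave the resting state held by factors such as KLF2.

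Counts summed over genes ranged from 17550712 to 20069272 in the 5 libraries, and levels are given in CPM (counts relative to library size, scaled by TMM factors). A single count was worth 0.0501 to 0.0566 CPM in these 5 libraries. File names start with RCa1 for replicate 1 in all 3 groups and with RCa18 for the rest, and what these prefixes mean is unknown. Multimapped reads made up 37.5% to 50.2% of the RCa1 files and 14.7% to 21.5% of the others. Within each prefix TLR files held more of them than naive files: 50.2% against 37.5%, and 21.5% against 15.1% and 14.7%. Reads outside counted genes made up 13.1% to 15% of naive files and 7.84% and 8.46% of TLR files. Multimapped reads were not counted, so levels of genes with close copies may be affected unequally between the states. Within each prefix, 8549 of the 8551 genes called below kept their direction, although those libraries also made the calls.

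The 8 fixed B cell markers were all present in the TLR libraries but lower than in naive cells. Their summed level was 11161, 11751 and 11558 CPM in naive replicates 1 to 3 and 2897 and 3062 CPM in TLR replicates 1 and 2. Markers of 4 other types of leukocyte were mostly lower too. T cell markers fell in 13 of 14 members (summed level 317 to 360 CPM in naive and 34.8 to 36.4 CPM in TLR libraries), with the T cell adaptor gene Lat not called. Natural killer markers fell in 10 of 10 (19.8 to 93.7 CPM against 1.36 to 1.75 CPM). Macrophage and monocyte markers fell in 13 of 14: their summed level was 1613, 395 and 209 CPM in naive replicates 1 to 3 and 15.2 and 20.6 CPM in the TLR libraries, and Marco was not called. Dendritic cell markers fell in 6 of 8 (28.1 to 67.8 CPM against 4.30 to 6.92 CPM). Macrophage markers were highest in naive replicate 1, and the summed markers of these 4 cell types were far lower in both TLR libraries. Erythroid markers differed: 3 of 4 tested members fell but Hbb-bt rose, and the summed level was 55.1, 4.66 and 10.8 CPM in naive and 34.2 and 36.6 CPM in TLR libraries. Hbb-bh1, another globin gene, was among the genes switched on, at 5.15 and 10.8 CPM in TLR libraries, and globin genes have close copies. In bulk RNA, fewer cells of a type and less RNA per cell cannot be told apart.

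**Figure D1:**
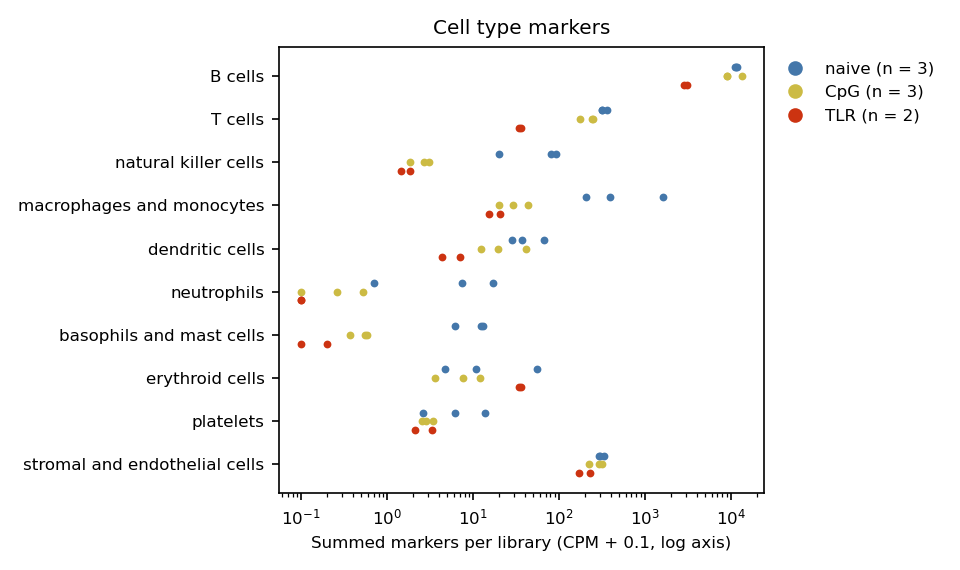
Summed level of each fixed marker list in each library (CPM + 0.1, log axis), 1 point per library for 3 naive, 3 CpG and 2 TLR libraries. B cell markers sat between 11161 and 11751 CPM in naive and at 2897 and 3062 CPM in TLR libraries, and macrophage markers spread from 209 to 1613 CPM over the naive libraries.

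Most tested genes differed between the naive and the end state. Of 13964 tested genes, 4409 were higher and 4142 lower in TLR than in naive libraries by edgeR's quasi-likelihood test with Benjamini-Hochberg adjustment, which is 61.2% of those tested. Losses reached further than gains: 2789 called genes fell at least 2-fold and 384 at least 32-fold, against 2571 and 123 that rose by as much. Where a group has few counts, the size of a fold depends on the small prior count added in the fit. The falls also include markers of other leukocytes, and the part of those cells was not tested. The median log2 fold change over all tested genes was 0.01. Levels are relative to each library, so a shift in total RNA per cell would not show. From the same fit, 45.5% of genes were called between CpG and naive and 38.8% between TLR and CpG. These comparisons share libraries, so their values are set side by side without a test between them.

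**Figure D2:**
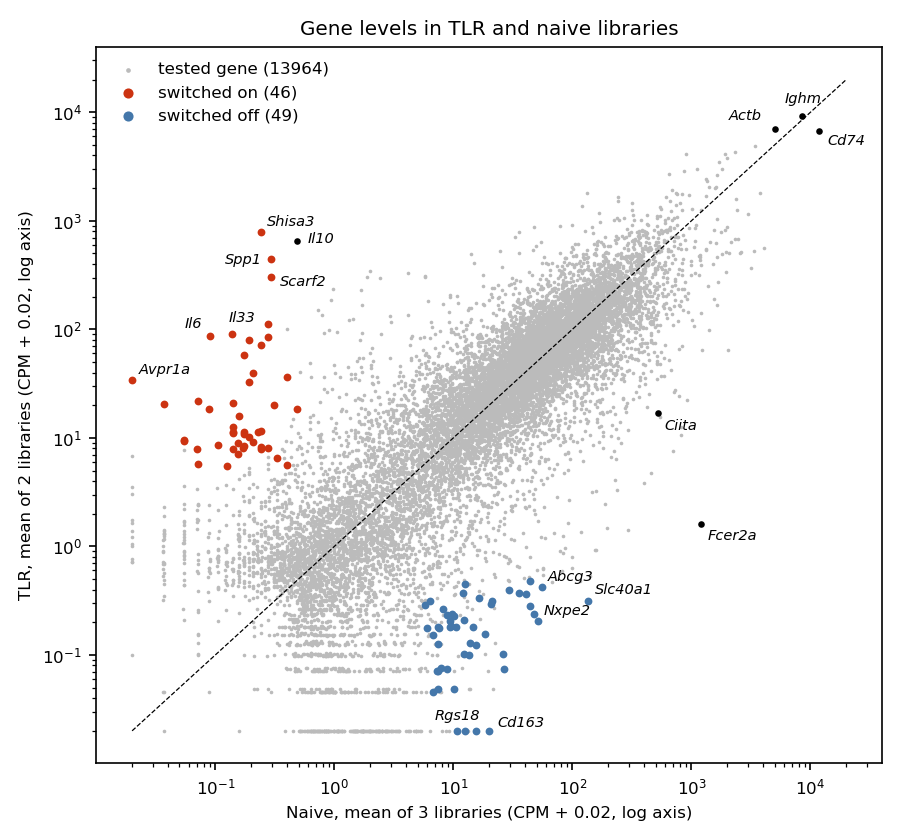
Mean level of each of 13964 tested genes in 3 naive (x axis) and 2 TLR libraries (y axis), both as CPM + 0.02 on log axes, with the line of equality dashed. Red points are the 46 genes switched on and blue points the 49 switched off; Shisa3, Spp1 and Il10 lie far above the line and Fcer2a far below it.

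The IL-10 gene itself showed the contrast in full. Il10 was at 0.938, 0.20 and 0.261 CPM in the naive libraries, at 41.8 to 58.9 CPM with CpG alone, and at 638.7 and 652.7 CPM in the TLR libraries. No TLR library came near a naive one, and the 2 TLR values were within a few percent of each other. The log2 fold change was 10.42 ± 0.37 (SE; adjusted p = 1.5e-07), and 11.40 without naive replicate 1, which held most of the naive counts. Havcr1, which encodes TIM-1, a surface protein used to identify regulatory B cells, rose from 4.11 ± 0.94 (SD, n = 3) to 136 ± 47.7 CPM (SD, n = 2), by 5.05 ± 0.27 on the log2 scale (adjusted p = 6.15e-07). Other genes linked to regulatory B cells did not follow. Ebi3, a subunit of IL-35 and IL-27, was at 10.6 CPM in naive and 10.0 CPM in TLR libraries (log2 fold change -0.08 ± 0.23, adjusted p = 0.79). Il12a, the other IL-35 subunit, was at 26.1 and 24.2 CPM (-0.11 ± 0.25, adjusted p = 0.719), although its level with CpG alone was 79.8 CPM. Tgfb1 stood at 372 and 330 CPM (-0.17 ± 0.13, adjusted p = 0.26). Cd274, encoding the checkpoint ligand PD-L1, was lower, at 50.1 CPM against 75.6 CPM (-0.60 ± 0.22, adjusted p = 0.0362), a call lost without TLR replicate 2 (-0.37, adjusted p = 0.266), naive replicate 1 (adjusted p = 0.088) or naive replicate 2 (adjusted p = 0.0678), and with prefix RCa18 by itself (adjusted p = 0.0603).

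The most abundant messages of the 2 states were partly the same. Levels between genes were compared as CPM per kilobase of exon. Only the 32860 identifiers with a symbol were ranked, and genes of the mitochondrial genome were not among those analysed. Multimapped reads were not counted, so genes with close copies may rank too low. In naive cells the highest were Igkc (immunoglobulin kappa constant region), Cd74 (the invariant chain of MHC class II) and Ighm (IgM heavy chain), with means of 7079, 7069 and 4476. In TLR cells the order was Ighm at 4943, Cd74 at 4031, the ribosomal stalk gene Rplp1 at 3517 and Igkc at 3361. The naive Igkc values were 9944, 5556 and 5739 and the TLR values 3203 and 3520 CPM per kilobase, so the groups did not overlap, and the log2 fold change was -1.07 ± 0.26 (adjusted p = 0.00523). Ighm was at 5838, 3848 and 3741 in naive and at 4308 and 5577 CPM per kilobase in TLR libraries. Those values overlap, and no difference was called (0.14 ± 0.22, adjusted p = 0.584), except when only prefix RCa18 was fitted (0.55, adjusted p = 0.00855).

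Some genes of antigen presentation and resting B cells left the top 10, and some genes of protein synthesis entered it. Cd74 held rank 2 in both states, and Rplp1 was already at rank 8 in naive cells. H2-Eb1, a class II beta chain, was at 1800, 1671 and 1672 CPM per kilobase in naive libraries and at 237 and 302 in TLR libraries, going from rank 7 to rank 101. Cd79b, a signalling chain of the B cell receptor, went from 1432 ± 48.8 to 351 ± 14 CPM per kilobase and from rank 10 to rank 64. B2m, the light chain of MHC class I, went from 1536 to 629, and Tmsb4x, an actin-binding peptide, from 2173 to 842.5. Rplp1 went the other way, from 1897, 1532 and 1533 to 3658 and 3375 CPM per kilobase. Rpl4, Rpl8, Rps15 and the elongation factor Eef1a1 were in the TLR top 10 and outside the naive one, at naive ranks 13 to 22. The ribosomal change was small per gene: Rpl4 rose by 0.92 ± 0.14 (adjusted p = 0.000256) and Eef1a1 by 0.87 ± 0.14 (adjusted p = 0.000411), while the calls of Rps15 (0.57, adjusted p = 0.0275) and Actb (0.50, adjusted p = 0.0383) were lost in some fits with a library left out (adjusted p of 0.0649 to 0.114 for Rps15 and 0.0615 to 0.155 for Actb). Blocking on replicate number also ended the Actb call (0.40, adjusted p = 0.051), as did RLE factors (0.44, adjusted p = 0.0562), and the Rps15 call was lost with prefix RCa18 by itself (adjusted p = 0.0686).

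The climbers outside the top 10 were larger. Fth1, the ferritin heavy chain that stores iron, went from 269, 248 and 265 to 1422 and 965 CPM per kilobase, from rank 90 to rank 14. Cd24a, a surface glycoprotein of immature and activated B cells, went from 251 ± 12.3 to 1049 ± 136 and from rank 96 to rank 16. Hsp90ab1, a constitutive HSP90 chaperone, went from 640 to 1383. Gm23935, a gene of 57 bases, stood among the top 10 of both states, but its naive values ran from 425 to 6430, so its rank varied with the library.

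**Figure D3:**
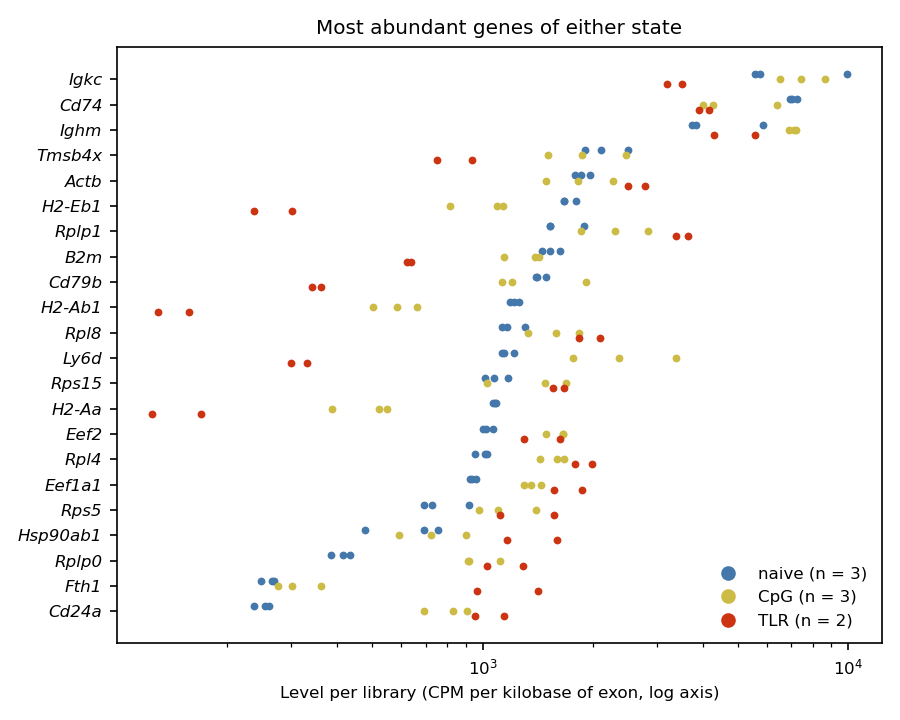
Level of the most abundant genes of either state (the first 15 of naive or TLR among genes with at least 0.2 kilobases of exon) in each library, as CPM per kilobase of exon on a log axis. Class II genes, Cd79b and Ly6d sit far lower in the TLR libraries, while Fth1, Cd24a and ribosomal genes sit higher.

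As shares of a library, the 10 highest genes by counts held 4.57% to 5.55% of naive reads and 5.00% and 5.26% of TLR reads, a similar share in both states. Class II genes took 2.58% to 2.70% of naive and 0.849% to 0.855% of TLR counts. Cytosolic ribosomal protein genes took 1.91% to 2.30% and 3.18% to 3.91%. Called genes that rose gained 283263 CPM in sum and those that fell fell by 281273 CPM in sum. CPM add up to nearly the same total in every library, so these sums nearly balance by construction. The leading 10 genes made up 7.28% of the gain and 9.22% of the loss. Besides genes named above, the leading gains included Ccnd2, encoding the G1 cyclin D2 (117, 153 and 125 CPM in naive, 1969 and 1606 CPM in TLR libraries, log2 fold change 3.76 ± 0.26, adjusted p = 2.54e-06), and the nucleolar protein gene Ncl (863 to 2862 CPM). The leading losses included Ms4a1, encoding CD20 (1816, 2129 and 2157 CPM in naive, 52.4 and 76.6 CPM in TLR libraries, -4.98 ± 0.29, adjusted p = 9.86e-07), Ly6e (2606 to 514 CPM) and Serinc3 (2480 to 683 CPM). Ms4a1 stood at 1995 CPM with CpG alone, near its naive level.

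Few genes went all the way from off to on. A gene counted as switched on when it was below 0.5 CPM in every naive library and at or above 5 CPM in both TLR libraries, and 46 of 37583 identifiers (0.122%) met this, 45 of them protein coding. Each was also called in the test across genes, which reads the same values. With CpG alone, 18 of the 46 were already at or above 5 CPM in every library, 25 lay between and 3 (Acod1, Mmp10 and Rbpms2) were still below 0.5 CPM. None of the 46 was on a marker list of another cell type.

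The 4 highest in TLR cells with a promoter in the RefSeq table are shown because they define the gained state, and Il6, added after its values were seen, because its promoter is well studied. Each run is the 250 bases before the annotated start, 5′ to 3′ in the sense of the gene, on build GRCm38.p6 (the counts used mm9, so these positions are not those of the count files). Capitals mark matches on either strand to AP-1 (TGANTCA), CRE (TGACGTCA), the C/EBP-ATF response element (TGATGCAA), a TATA box (TATAAA) or the NF-kB consensus.
Shisa3 (chr5:67607633-67607882, plus strand): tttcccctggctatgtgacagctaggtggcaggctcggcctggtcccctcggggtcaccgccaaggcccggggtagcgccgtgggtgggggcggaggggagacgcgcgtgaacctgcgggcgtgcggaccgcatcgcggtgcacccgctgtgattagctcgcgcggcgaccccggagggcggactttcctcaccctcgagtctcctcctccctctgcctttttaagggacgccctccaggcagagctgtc
Spp1 (chr5:104434861-104435110, plus strand): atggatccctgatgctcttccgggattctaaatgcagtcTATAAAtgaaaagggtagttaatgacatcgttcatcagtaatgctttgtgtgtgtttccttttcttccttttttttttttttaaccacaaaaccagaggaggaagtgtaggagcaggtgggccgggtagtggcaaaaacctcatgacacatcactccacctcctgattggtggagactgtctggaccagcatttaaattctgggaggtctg
Scarf2 (chr16:17797032-17797281, plus strand): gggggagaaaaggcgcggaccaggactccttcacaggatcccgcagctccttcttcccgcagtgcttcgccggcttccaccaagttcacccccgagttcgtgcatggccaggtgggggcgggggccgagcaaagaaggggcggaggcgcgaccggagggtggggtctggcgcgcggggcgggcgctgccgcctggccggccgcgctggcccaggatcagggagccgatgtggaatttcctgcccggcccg
Chac1 (chr2:119350992-119351241, plus strand): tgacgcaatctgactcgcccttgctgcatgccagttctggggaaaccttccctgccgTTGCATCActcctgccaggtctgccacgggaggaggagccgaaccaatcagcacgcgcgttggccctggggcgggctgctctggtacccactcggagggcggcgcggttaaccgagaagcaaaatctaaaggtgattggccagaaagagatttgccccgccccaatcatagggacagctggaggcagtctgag
Il6 (chr5:30012864-30013113, plus strand): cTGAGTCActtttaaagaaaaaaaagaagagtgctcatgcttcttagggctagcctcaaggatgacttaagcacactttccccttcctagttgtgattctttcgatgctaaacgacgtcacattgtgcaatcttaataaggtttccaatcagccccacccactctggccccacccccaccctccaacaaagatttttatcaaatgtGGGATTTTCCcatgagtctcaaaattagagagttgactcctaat
The Il6 run holds an AP-1 match 249 to 243 bases and an NF-kB match 44 to 35 bases before the start. Chac1 holds a response element match 193 to 186 bases before the start and Spp1 a TATA match 211 to 206 bases before it. Shisa3 and Scarf2 hold none of the 5 motifs in this window. Of 37 switched-on genes with a promoter in the table, 4 (10.8%) held AP-1, against 6.87% of all 27025 promoters of this length, 4 (10.8%) held NF-kB against 3.75%, 8 (21.6%) TATA against 13%, 1 (2.70%) the response element against 0.818%, and 0 a CRE against 1.62%. Among 37 switched-off genes the counts were 1, 1, 3, 0 and 0. The motifs can overlap, and these shares describe letters, not binding.

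Shisa3, which encodes a membrane protein known to restrain WNT and FGF signalling, was the highest switched-on gene. Its levels were 0.0521, 0.250 and 0.365 CPM in the naive libraries, 53.8 to 137 CPM with CpG and 796.5 and 784.0 CPM in the TLR libraries. Both TLR values lay above every CpG value, and every CpG value lay far above the naive ones. The log2 fold change was 11.75 ± 0.53 (adjusted p = 2.94e-07). Shisa3 shares exon positions with Atp8a1 on the opposite strand, and counting ignored strand. Spp1, encoding the secreted matrix protein osteopontin, was at 0.0521, 0.351 and 0.418 CPM in naive libraries and at 360 and 522 CPM in TLR libraries (10.62 ± 0.59, adjusted p = 7.67e-07). Scarf2, a scavenger receptor family member, was at 0.250 to 0.312 CPM and then at 379 and 223 CPM (10.06 ± 0.53, adjusted p = 5.57e-07).

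Several of the named switched-on genes encode cytokines or their antagonists, brought together here after their values were seen. Il6, the acute-phase cytokine, was at 0.156, 0 and 0.0522 CPM in naive libraries and at 108 and 65.4 CPM in TLR libraries (10.16 ± 0.56, adjusted p = 6.99e-07, and 11.37 without naive replicate 1). Il33, an alarmin held in the nucleus, was at 0.0522 to 0.20 CPM and then at 121 and 58.5 CPM (9.47 ± 0.51, adjusted p = 6.55e-07, and 8.86 without TLR replicate 1). Il1rn, the antagonist of the IL-1 receptor, was at 0.417, 0 and 0.104 CPM and then at 105 and 53.4 CPM (8.80 ± 0.97, adjusted p = 4.07e-05), and 10.41 without naive replicate 1 or 8.21 without naive replicate 2. In all of these, TLR replicate 1 was the higher of the TLR libraries. The switched-on rule itself keeps the naive and TLR groups apart. Il19, an IL-10 family cytokine named here after its values were seen, had 1 count over the naive libraries and 745 over the TLR libraries, a ratio of 1173 with an exact 95% interval of 210 to 46403 that covers counting error only.

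Chac1, which degrades glutathione and is a target of ATF4, was at 0.417, 0.20 and 0.157 CPM in naive and at 160 and 61.6 CPM in TLR libraries (8.71 ± 0.81, adjusted p = 1.3e-05). Cth, which makes cysteine, was at 0.156 to 0.313 CPM and then at 132 and 37.6 CPM (8.33 ± 1.22, adjusted p = 0.000248). The TLR libraries differed widely in both genes, and without TLR replicate 1 the values were 7.87 for Chac1 and 7.16 for Cth. Without TLR replicate 2, Cth was at 8.97. Tnip3, an inhibitor of NF-kB signalling, reached 58.1 and 58.8 CPM from at most 0.260 CPM (8.50 ± 0.31, adjusted p = 1.5e-07), but all 3 CpG libraries (70.9 to 99.7 CPM) were higher still, as was so for 5 of the 46. The same share over all genes was not counted.

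Other switched-on genes were chosen for mention after their values were seen. Avpr1a, a vasopressin receptor, had 0 counts in every naive library and 34.4 and 33.8 CPM in the TLR libraries, at least 663-fold higher by a floor of 3 counts over the naive group. Acod1, which makes itaconate in activated myeloid cells, had 3 counts over the naive libraries and reached 33.7 and 9.55 CPM only with the last step. Mmp10, a secreted matrix protease, had 2 counts over the naive libraries and reached 6.79 and 12.0 CPM. Acod1 and Mmp10 were below 0.5 CPM in all CpG libraries, so among the 3 groups they were seen above the limit in TLR cells alone.

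A similar number of genes, 49 of 37583 (0.130%), were switched off, meaning at or above 5 CPM in every naive library and below 0.5 CPM in both TLR libraries. With CpG alone 1 of them (Nxpe2) remained at or above 5 CPM in every library, 39 lay between and 9 were below 0.5 CPM. In 36 of the 49, all 3 CpG libraries were above both TLR libraries. The rule asks for TLR levels below 0.5 CPM, which favours this order. Its share over all genes was not counted. In 15 of the 49, the TLR libraries together held 3 counts or fewer.

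These 49 fell into sets by how the naive libraries compared with each other. In 35 genes the naive libraries lay within 2-fold of each other. Nxpe2, a member of the neurexophilin family, was at 57.1, 48.2 and 48.2 CPM in naive and at 0.113 and 0.258 CPM in TLR libraries (-8.03 ± 0.43, adjusted p = 6.39e-07), with 8.24 to 15.5 CPM in the CpG libraries. Rapgef4, encoding the cAMP sensor EPAC2, was at 46.7, 39.8 and 36.4 CPM and then at 0.226 and 0.465 CPM (-6.84 ± 0.54, adjusted p = 4.92e-06). Pglyrp2, an amidase that cleaves bacterial peptidoglycan, was at 38.6, 35.0 and 32.6 CPM and then at 0.396 and 0.310 CPM (-6.63 ± 0.54, adjusted p = 6.15e-06). Rgs18, a brake on G protein signalling, was at 15.6, 14.1 and 16.9 CPM and had 0 counts in both TLR libraries, at least 192-fold lower by a floor of 3 counts over the TLR group. Without TLR replicate 2 the values of Nxpe2 and Rapgef4 were -8.73 and -7.45.

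In 10 genes naive replicate 1 was at least 3 times naive replicate 3, and most of those named are known from macrophages. Slc40a1, the iron exporter ferroportin, measured 300.3, 74.1 and 34.0 CPM in the naive libraries in order, then 0.283 and 0.310 CPM with TLR stimulation (-8.81 ± 1.24, adjusted p = 0.000199, and -7.49 without naive replicate 1). Spic, a factor of iron-recycling spleen macrophages, was at 64.2, 15.4 and 7.52 CPM and then at 0.340 and 0.413 CPM (-6.24 ± 1.05, adjusted p = 0.000623, and -4.91 without naive replicate 1). Fcna, a lectin secreted by macrophages, was at 97.4, 23.1 and 10.2 CPM and then at 0.453 and 0.465 CPM. The adhesion receptor gene Adgre4 had 3 counts over the TLR libraries, a ratio of 322 with an exact 95% interval of 110 to 1565 (counting error only). Its log2 fold change without naive replicate 1 was -7.06 against -8.22 with it, both dependent on the prior count. The 4 genes named here ran across the naive libraries in the order of the summed macrophage markers (1613, 395 and 209 CPM). Their choice already placed replicate 1 above replicate 3, and Slc40a1 is part of that sum. Lair1, another of the 10, did not keep the order (24.2, 6.46 and 6.63 CPM). The part of macrophages in the fall of these genes was not tested. Slc40a1 is itself a listed marker, as are Kit and Ly6c2 among the 49.

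**Figure D4:**
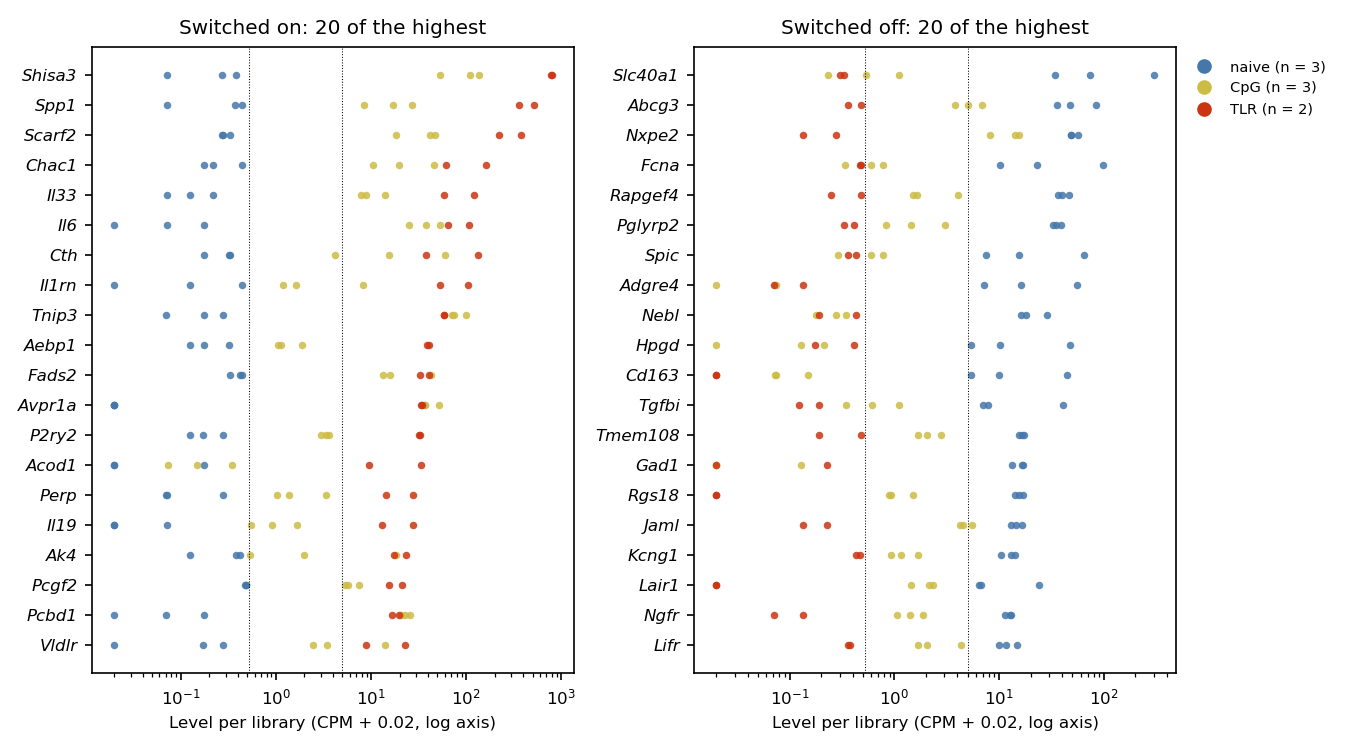
Level in each library (CPM + 0.02, log axis) of 20 switched-on and 20 switched-off genes among the highest in their on state, established symbols only; dotted lines mark 0.5 and 5 CPM. Most CpG points lie between the other groups, and the naive points of Slc40a1, Fcna, Spic, Adgre4, Hpgd, Cd163 and Tgfbi are spread widely.

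Gene families were then read over both steps together, as counts of called members and the median log2 fold change beside those of all tested genes (31.6% higher, 29.7% lower, median 0.01). Of 41 lists with a tested member, 17 had a median above 0.5, 12 below -0.5 and 12 between. In all 12 that fell, the medians of both steps were negative. In 13 of the 17 that rose, both were positive. Each gene's whole change is the sum of both steps in the same fit. Sorting lists by the whole therefore favours steps of the same sign. For CpG against naive the background was 23.5% higher and 21.9% lower, and for TLR against CpG 19.0% and 19.8%.

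**Figure D5:**
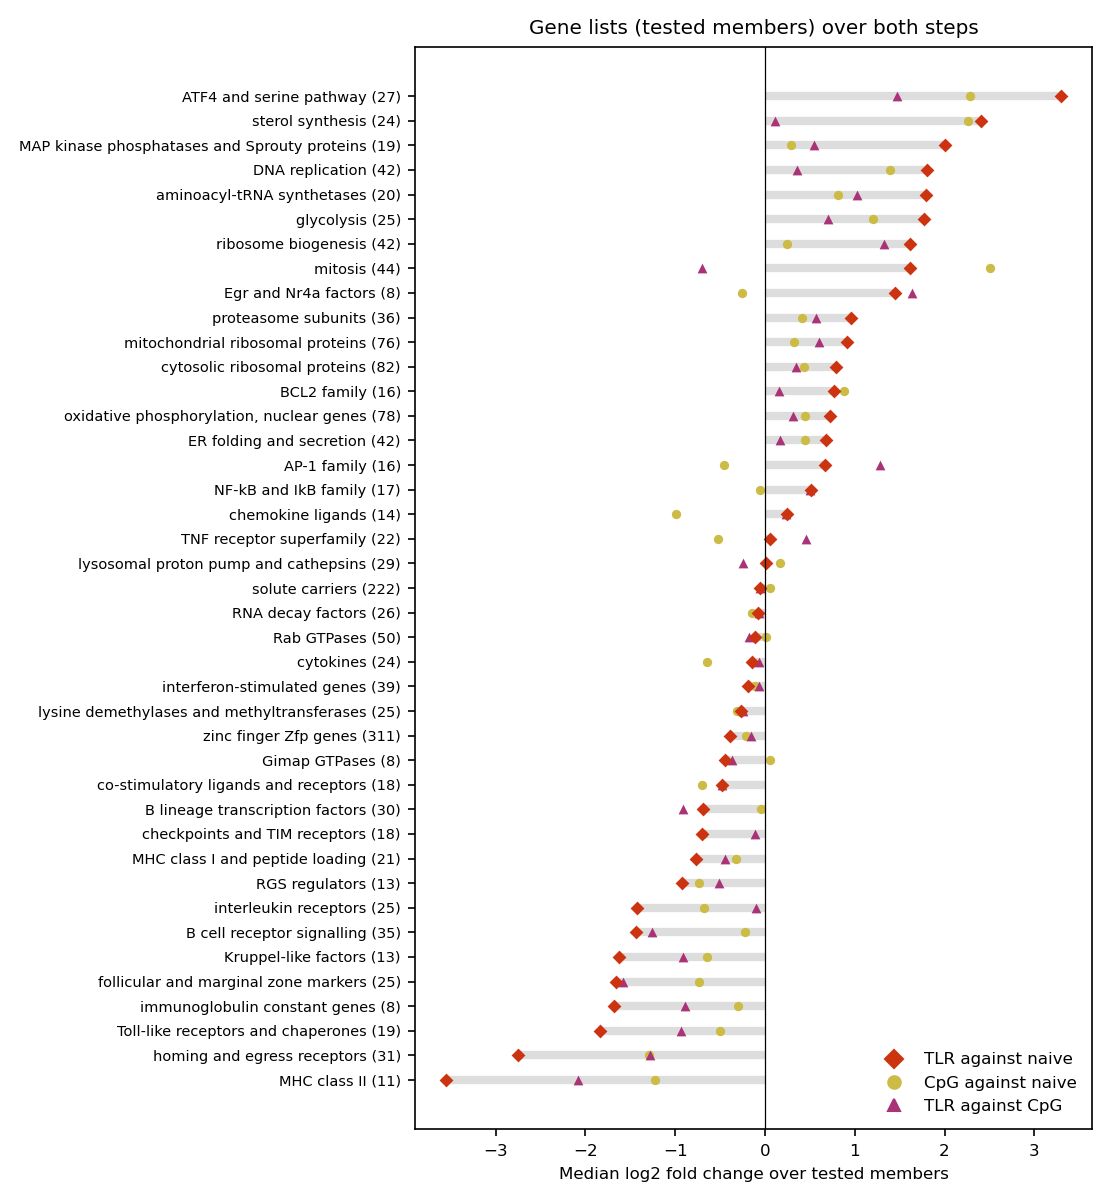
Median log2 fold change over the tested members of each gene list (number tested in brackets) for TLR against naive (diamonds, grey bar from 0), CpG against naive (circles) and TLR against CpG (triangles). ATF4 and sterol genes lie farthest right and class II and homing genes farthest left; for mitosis the triangle lies left of 0 at -0.70 and the circle at 2.51.

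In the NF-kB and IkB family, 9 of 17 members were higher, 1 lower (Cyld) and 7 not called, with a median of 0.51. Nfkbiz, an atypical IkB protein that activates Il6 and other genes, went from 50.2, 40.9 and 50 to 598 and 486 CPM (3.53 ± 0.19, adjusted p = 6.66e-07), and Bcl3, another nuclear IkB protein, from 81.7 to 382 CPM (2.22 ± 0.14, adjusted p = 1.63e-06). In the AP-1 family 8 of 16 were higher, 5 lower and 3 not called, with a median of 0.67, made of -0.46 for CpG against naive and 1.28 for the last step. Batf, which acts with IRF4 in activated lymphocytes, went from 13.3, 14.1 and 14.7 to 549 and 430 CPM (5.12 ± 0.17, adjusted p = 1.21e-07). Atf3, a stress-induced repressor, went from 0.706 to 150 CPM (7.73 ± 0.32, adjusted p = 2.16e-07), a level CpG alone had reached (164 CPM). Fosl2 went from 1.76 to 25.0 CPM (3.82 ± 0.41, adjusted p = 3.09e-05), with 2.32 CPM under CpG alone. Fos itself, named for contrast after its values were seen, was lower at 5.43 and 13 CPM against 53.5 to 259 CPM.

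In the Egr and Nr4a list 5 of 8 rose and 1 fell, with medians of -0.26 for CpG against naive, 1.64 for TLR against CpG and 1.45 in all. Egr1 was at 55.4, 51.6 and 89.3 CPM in naive and at 230 and 400 CPM in TLR libraries (2.27 ± 0.29, adjusted p = 9.47e-05), while Egr3 fell from 48.4 to 11.8 CPM (-2.04 ± 0.27, adjusted p = 0.000128). Of 19 MAP kinase phosphatases and Sprouty proteins, most of which restrain MAP kinase signalling, 12 rose and 4 fell over both steps (median 2.00). For CpG against naive 7 were higher and 6 lower, and for TLR against CpG 6 were higher and 1 lower. Among the 12 was Dusp4 (23.8 to 257 CPM, 3.43 ± 0.25, adjusted p = 3.22e-06). Among 13 Kruppel-like factors 8 fell and 1 rose (median -1.62). Klf2, which maintains quiescence and drives expression of egress receptors, went from 830, 589 and 701 CPM to 7.19 and 7.95 CPM (-6.54 ± 0.23, adjusted p = 1.5e-07).

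Of 24 tested genes on the cytokine list, 7 rose (Spp1, Il10, Il6, Vegfa, Lif, Il27 and Tnf) and 9 fell, with a median of -0.14, close to the shares of all tested genes. Il33, Il19 and Il1rn are not on that list and are not in its count. Ltb, encoding lymphotoxin beta, which organises lymphoid tissue, was at 746, 855 and 840 CPM in naive and at 10.2 and 10.9 CPM in TLR libraries (-6.26 ± 0.33, adjusted p = 5.57e-07). Among chemokine ligands 6 of 14 rose and 5 fell. Ccl4 went from 1.09, 0.300 and 0.887 to 190 and 83.5 CPM (7.48 ± 0.53, adjusted p = 2.73e-06, and 6.78 without TLR replicate 1), and Ccl3 from 1.61 to 79.5 CPM (5.63 ± 0.53, adjusted p = 1.52e-05). The list's median of 0.25 turned to -0.38 without TLR replicate 2, to -0.51 without CpG replicate 3 and to -0.54 in a fit of the 5 libraries alone. Ifng and Cxcl9, which fell, are made chiefly by T, natural killer and myeloid cells, whose markers fell as well, and the part of those cells was not tested.

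Inhibitory receptors also moved both ways: 6 of 18 checkpoint and TIM genes rose and 8 fell (median -0.70). Ctla4, whose product restrains T cells, went from 1.15, 0.451 and 1.04 to 105 and 94.0 CPM (6.82 ± 0.28, adjusted p = 1.97e-07) while T cell markers fell. Btla, an inhibitory receptor of resting lymphocytes, went from 854 to 152 CPM (-2.49 ± 0.22, adjusted p = 1.11e-05), and Entpd1, the ATP-degrading enzyme CD39, from 34.4 to 2.70 CPM (-3.67 ± 0.40, adjusted p = 3.73e-05). Of 18 co-stimulatory genes 4 rose and 10 fell (median -0.48). Cd83 rose from 242 to 1521 CPM (2.65 ± 0.15, adjusted p = 7.12e-07) and Icosl, the ligand of ICOS, fell from 515 to 51.5 CPM (-3.32 ± 0.23, adjusted p = 2.63e-06). Of 25 interleukin receptors 8 rose and 14 fell (median -1.43). Il2ra, the high-affinity IL-2 receptor chain CD25, went from 5.37, 4.91 and 7.05 to 307 and 296 CPM (5.71 ± 0.32, adjusted p = 7.2e-07), whereas Il9r went from 146 to 3.14 CPM (-5.54 ± 0.25, adjusted p = 2.94e-07).

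Antigen presentation fell at both steps. All 11 tested MHC class II genes were lower, with medians of -1.22 for CpG against naive, -2.08 for TLR against CpG and -3.55 in all. Their summed level was 26410, 25933 and 26761 CPM in naive and 8493 and 8519 CPM in TLR libraries. Ciita, the master regulator of class II transcription, went from 482, 574 and 519 to 15.1 and 18.7 CPM (-4.96 ± 0.18, adjusted p = 1.64e-07), although it shares exon positions with Dexi on the opposite strand. H2-Ab1, a classical beta chain, went from 3136 to 369 CPM (-3.09 ± 0.18, adjusted p = 9.32e-07), H2-DMb2, part of the peptide-loading chaperone, from 719 to 26.4 CPM (-4.76 ± 0.25, adjusted p = 5.41e-07), and Cd74 by only -0.81 ± 0.21 (adjusted p = 0.00733). Of 21 MHC class I and peptide-loading genes 13 fell and 5 rose (median -0.77). H2-K1 went from 2314 to 686 CPM (-1.75 ± 0.13, adjusted p = 3.96e-06). Class I and class II genes have close copies whose multimapped reads were not counted, so their levels are uncertain.

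B cell identity and antigen sensing fell broadly. In B cell receptor signalling 30 of 35 genes fell and 2 (Fyn and Pik3ap1) rose (median -1.44). Blk, a B cell SRC-family kinase, went from 710, 672 and 622 to 41.9 and 43.2 CPM (-3.97 ± 0.16, adjusted p = 1.9e-07), and Siglecg, an inhibitory co-receptor, from 1061 to 108 CPM (-3.30 ± 0.22, adjusted p = 1.84e-06). Of 30 B lineage transcription factors 18 fell and 5 rose (median -0.69). Ikzf3, encoding Aiolos, went from 654 to 52.3 CPM (-3.65 ± 0.20, adjusted p = 7.69e-07), and Zbtb32, a repressor raised in activated B cells, rose from 8.49, 4.46 and 4.44 to 368 and 249 CPM (5.73 ± 0.32, adjusted p = 7.69e-07). Of 25 follicular and marginal zone markers 18 fell and 3 rose (median -1.66). Fcer2a, encoding CD23, the low-affinity IgE receptor of follicular B cells, was at 1014, 1378 and 1255 CPM in naive, 39.5 to 76.3 CPM with CpG and 1.19 and 2.01 CPM in TLR libraries (-9.55 ± 0.45, adjusted p = 3.68e-07). Its TLR values stayed above the 0.5 CPM limit of the switched-off rule. Cd55, a complement regulator, went from 545 to 15.5 CPM (-5.14 ± 0.25, adjusted p = 4.23e-07).

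Of 8 immunoglobulin constant-region and joining-chain genes tested, 6 fell and 1 rose (median -1.68). The median log2 difference was -2.07 within prefix RCa1 and -0.52 within RCa18. The summed level of the list overlapped between the groups, at 18705, 11142 and 10916 CPM in naive and 10764 and 13387 CPM in TLR libraries. Ighd, Igha, Iglc1 and Iglc3 were listed but matched no identifier. Iglc2 went from 606 to 202.5 CPM (-1.58 ± 0.26, adjusted p = 0.000545). Ighg2b, the IgG2b heavy chain, was at 258, 62.7 and 16.2 CPM in naive and 596 and 620 CPM in TLR libraries (2.44 ± 0.78, adjusted p = 0.0208). Its call was lost without naive replicate 2 and without either TLR library, and its value was 3.93 without naive replicate 1. Ighg1 fell by 1.78 on the log2 scale (adjusted p = 0.0205), a call lost without TLR replicate 1 (-1.08, adjusted p = 0.103) or naive replicate 2 (-1.27, adjusted p = 0.0698), while the value was -3.20 without TLR replicate 2.

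Homing genes formed the family with the second-lowest median. Of 31 homing and egress receptors 21 fell and 4 rose (Cd44, Ccr9, Itgb1 and Itgal), with medians of -1.29, -1.28 and -2.75 for the first step, the last step and the whole. S1pr1, the receptor that lets lymphocytes leave lymphoid organs, went from 445, 402 and 359.5 CPM to 3.96 and 3.67 CPM (-6.72 ± 0.27, adjusted p = 1.9e-07). Itga4, an integrin subunit that binds VCAM-1, went from 426 to 19.1 CPM (-4.48 ± 0.18, adjusted p = 1.9e-07), with exon positions shared with Cerkl on the opposite strand. Cnr2, the cannabinoid receptor that holds B cells in the marginal zone, went from 362 to 30.1 CPM (-3.59 ± 0.20, adjusted p = 6.8e-07). Ccr2, Ccr3, Cxcr2 and Cxcr3 in this list are receptors of other leukocytes as well, whose markers also fell, and the part of those cells was not tested. Of 13 RGS genes 6 fell and 1 rose (median -0.92): Rgs14 went from 142 to 21.8 CPM (-2.70 ± 0.23, adjusted p = 7.47e-06), and Rgs16 rose from at most 0.261 CPM to 1.81 and 11.5 CPM in the TLR libraries (4.66 on the log2 scale, 5.45 without TLR replicate 1 and 2.79 without TLR replicate 2).

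Receptors of the stimuli themselves were lower in the end state. Of 19 Toll-like receptors and chaperones 14 fell and 1, Lrrc32, rose (median -1.84). Tlr4, the LPS receptor, was at 30.1, 33.7 and 30.2 CPM in naive, 14.5 CPM with CpG and 2.38 and 2.22 CPM in TLR libraries (-3.77 ± 0.27, adjusted p = 2.88e-06). Unc93b1, which carries TLR9 and TLR7 to endosomes, went from 983 to 316 CPM (-1.64 ± 0.16, adjusted p = 1.9e-05), after 1458 CPM with CpG alone. Lrrc32, encoding GARP, which presents latent TGF-beta at the cell surface, was at 1.61, 2.81 and 2.77 CPM in naive and 303 and 296 CPM in TLR libraries (6.96 ± 0.27, adjusted p = 1.71e-07). It rose while Tgfb1 did not pass the test. Tlr8, Tlr11 and Tlr13 had 0 counts in both TLR libraries and are receptors of myeloid cells as well, whose part was not tested.

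Growth programmes made up most of the families that rose. In the ATF4 and serine pathway list, which covers amino acid supply and the integrated stress response, 26 of 27 members rose, with medians of 2.28, 1.47 and 3.30 for the first step, the last step and the whole. Psat1, an enzyme of serine synthesis, went from 31.1, 38.9 and 35.8 to 952 and 639 CPM (4.50 ± 0.34, adjusted p = 3.85e-06), Mthfd2, a mitochondrial folate enzyme, from 24.8 to 529 CPM (4.42 ± 0.31, adjusted p = 2.64e-06), and Phgdh, the first enzyme of serine synthesis, from 25.7 to 228 CPM (3.15 ± 0.24, adjusted p = 4.28e-06). TLR replicate 1 was the higher of the 2 TLR libraries in each of the 3 genes. Of 20 aminoacyl-tRNA synthetases 19 rose and 1, Vars, fell (median 1.79), with Cars at 45.8 and 314 CPM (2.78 ± 0.21, adjusted p = 4.28e-06). All 42 ribosome biogenesis genes rose (median 1.62), and most of it came last, with medians of 0.25 for CpG against naive and 1.33 for TLR against CpG. Rrp1b went from 28.9, 33.3 and 33.2 to 178 and 159 CPM (2.41 ± 0.12, adjusted p = 4.73e-07), and Gnl3, encoding nucleostemin, from 80.1 to 324 CPM (2.02 ± 0.10, adjusted p = 4.86e-07).

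Ribosomes, mitochondria and proteasomes rose by less per gene but in many genes. Of 82 cytosolic ribosomal protein genes 61 rose (median 0.79), of 76 mitochondrial ribosomal protein genes 68 rose and 1, Mrpl24, fell (median 0.91), of 78 nuclear genes of oxidative phosphorylation 50 rose (median 0.72), and of 36 proteasome subunits 34 rose and 1 fell (median 0.96). The proteasome gene that fell, Psmb10, encodes a subunit of the immunoproteasome. Mrpl12 went from 27.9 to 113 CPM (2.02 ± 0.14, adjusted p = 2.46e-06), Uqcrq, a subunit of respiratory complex III, from 43.7 to 203 CPM (2.22 ± 0.15, adjusted p = 2.06e-06), and Psma6 from 118 to 385 CPM (1.71 ± 0.11, adjusted p = 2.04e-06). In these 4 lists both steps had positive medians. Genes of the mitochondrial genome itself were not analysed here.

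Of 25 glycolysis genes 18 rose and 2 fell (median 1.77). Hk2, the inducible hexokinase, went from 22.1, 16.5 and 14.3 to 353 and 277 CPM (4.16 ± 0.27, adjusted p = 1.72e-06), and Eno2 from 1.47 to 38.9 CPM (4.72 ± 0.33, adjusted p = 2.6e-06). Slc16a1, a lactate transporter, went from 20.9 to 198 CPM (3.24 ± 0.25, adjusted p = 4.79e-06). Of 24 sterol synthesis genes 22 rose (median 2.41), nearly all of it with CpG (median 2.26 against 0.11 in the last step). Sqle, squalene epoxidase, went from 29.1 to 253 CPM (3.12 ± 0.29, adjusted p = 1.29e-05), with 238 CPM under CpG alone. Of 42 ER folding and secretion genes 28 rose and 7 fell (median 0.68). Atf6, a sensor of unfolded protein, rose from 133 to 535 CPM (2.01 ± 0.12, adjusted p = 1.04e-06), and Ero1lb, an ER oxidase, fell from 188 to 37.5 CPM (-2.33 ± 0.19, adjusted p = 5.59e-06).

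Cell division genes were higher in the end state than in naive cells, but the medians of DNA replication and mitosis genes had opposite signs in the last step. Of 42 DNA replication genes 36 rose and 1, Pold1, fell, with medians of 1.39, 0.36 and 1.80 for the first step, the last step and the whole. Tyms, thymidylate synthase, went from 4.38, 4.26 and 4.86 to 104 and 69.8 CPM (4.27 ± 0.27, adjusted p = 1.54e-06), and Uhrf1, which maintains DNA methylation, from 22 to 240 CPM (3.45 ± 0.22, adjusted p = 1.36e-06). Of 44 mitosis genes 39 rose, with medians of 2.51, -0.70 and 1.61. In the last step alone 13 of 44 mitosis genes were lower by edgeR's test and 0 were higher. The summed level of the list was 2160, 4359 and 2880 CPM in CpG replicates 1 to 3. It was 1720 and 2138 CPM in the TLR libraries, so CpG replicate 1 lay close to TLR replicate 2. Cdk1, the kinase that starts mitosis, was at 7.03, 6.91 and 4.86 CPM in naive, 51.0 CPM with CpG and 52.4 and 59.0 CPM in TLR libraries (3.15 ± 0.33, adjusted p = 2.74e-05). Cdca8, of the chromosomal passenger complex, was at 9.06, 54.4 and 43.4 CPM in the 3 groups (2.26 ± 0.24 over both steps, adjusted p = 3.25e-05). Neither Cdk1 (0.13, adjusted p = 0.782) nor Cdca8 (-0.33, adjusted p = 0.312) was called by edgeR's test between TLR and CpG.

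Of 16 BCL2 family members, which promote or restrain cell death, 11 rose and 2 fell (median 0.77). Bcl2l1, encoding the survival protein BCL-XL, went from 8.18, 7.86 and 8.25 to 178 and 166 CPM (4.41 ± 0.12, adjusted p = 9.41e-08), with 47.1 CPM under CpG alone. Bbc3, encoding the death-promoting protein PUMA, rose as well, from 5.57 to 64.5 CPM (3.53 ± 0.38, adjusted p = 3.27e-05, and 2.86 without TLR replicate 1). Bik, Bcl2l11, Bax, Bak1, Pmaip1 and Bad, which also promote death, were among the 11, as were the survival genes Bcl2, Bcl2l2 and Bcl2a1b. The 2 that fell were Bmf, a death-promoting member (103 to 20.1 CPM, -2.36 ± 0.20, adjusted p = 8.67e-06), and the survival gene Mcl1.

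Other lists had members called in both directions. Of 39 interferon-stimulated genes 9 rose and 13 fell (median -0.19): Isg15, a ubiquitin-like protein, went from 10.2, 7.36 and 9.87 to 164 and 125 CPM (3.98 ± 0.19, adjusted p = 3.93e-07), and Ifih1, the RNA sensor MDA5, from 9.27 to 206 CPM (4.47 ± 0.31, adjusted p = 2.58e-06), while Samhd1 went from 1013 to 122 CPM (-3.05 ± 0.22, adjusted p = 3.08e-06) and Irf1 from 232 to 38.9 CPM (-2.58 ± 0.14, adjusted p = 7.43e-07). Of 29 proton pump and cathepsin genes 6 rose and 9 fell (median 0.01), with Ctsh, Ctso and Ctss among those lower. Of 8 Gimap GTPases 2 rose and 4 fell (median -0.44), and Gimap4 rose from 486 to 823 CPM (0.76 ± 0.16, adjusted p = 0.00228) while Gimap7 fell from 107 to 25.7 CPM (-2.05 ± 0.22, adjusted p = 3.04e-05). Of 26 RNA decay factors 7 rose and 11 fell (median -0.08), with Ybx3 rising from 78.0 to 896 CPM (3.52 ± 0.16, adjusted p = 3.68e-07) and Zfp36l2 falling from 456 to 76.8 CPM (-2.57 ± 0.29, adjusted p = 4.85e-05).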

How the data were processed

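RNA had been selected for poly(A) and made into strand-specific libraries, per the labels' protocols. The deposited values are raw counts of reads per gene. The submitters' processing notes name STAR, HTSeq, edgeR and mm9 with no versions used here. Which annotation release was counted is not stated there. The deposited file names say that counting ignored strand, so overlapping genes cannot be told apart: 29 of 207 named genes overlap exons of a gene on the opposite strand. The 5 summary lines were removed. Symbols came from GENCODE M21, which matched 32860 of 37583 identifiers.

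All 8 libraries were fitted together in edgeR 4.0.16 (R 4.3.3) with TMM factors and the quasi-likelihood test, after a filter on low counts that kept 13964 genes. A prior count of 0.125 and a Benjamini-Hochberg adjusted p below 0.05 were used, and errors of log2 fold changes are SE. Genes named are those fixed by name, the leading genes of each state and of gains and losses, the leading switched genes, and the leading called genes of each list; others are said to be chosen after their values were seen or are named only as list members. Members and lists were chosen with earlier results of these data known. Alternatives were other factors, filters, DESeq2 1.42.0, a replicate block, the RCa18 libraries, the 5 libraries alone and each library left out. The edgeR script was tested on simulated data with the TLR and naive design on 13964 genes. It called 80 of 100 genes changed 4-fold and 43 of 100 changed 2-fold, with 9 false calls. No other genes were changed, a far smaller share than the 61.2% called in the data, so these rates need not carry over. Some genes that the rule names are left out of the text.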

Additional observations from a re-analysis of the deposited data

How the results depend on the processing

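Called genes between TLR and naive numbered 4409 higher and 4142 lower. They ranged from 3632 to 4717 and from 3347 to 4354 over fits that left out a library, and from 4082 to 4676 and 3767 to 4463 over the other alternatives. Between TLR and CpG, 2647 and 2770 genes were called, with ranges of 1683 to 2756 and 1833 to 2869 over fits that left out a library, both lowest without TLR replicate 1, when a lone TLR library is assumed to vary like the other groups. The other alternatives gave 2312 to 3012 and 2464 to 3070. The 46 genes switched on became 7 with at most 3 counts in the off group, 84 with an off limit of 1 CPM, 101 with an on limit of 2 CPM and 24 with 10 CPM, and 47 to 58 with a library left out. The 49 switched off became 15, 102, 162 and 18, and 56 to 76, highest without TLR replicate 2. Leaving out a library removes a condition of the rule, so the counts without a library tend to be higher by construction. More genes were on than off at 10 CPM, with library size alone (49 against 47) and without naive replicate 1 (58 against 56), and fewer in the main count. Ranked without length, 6 of the naive and 5 of the TLR top 10 were shared with the main ranking, and with a library left out 10 of 10 and 9 to 10. With the replicate number as a block, 4415 genes were higher and 4187 lower between TLR and naive, 3428 and 3237 between CpG and naive, and 2719 and 2822 between TLR and CpG. Same-numbered libraries of naive and TLR correlated at 0.127 and 0.025 in their deviations from the group means, those of CpG and TLR at 0.325 and 0.297, and those of naive and CpG at 0.16, 0.104 and 0.00359. With 2 pairs for each TLR comparison, and 1 of 3 pairs under 0.1 for the other, the numbers were not taken to pair samples. Of 207 named genes, 0 changed sign, 5 lost their call in some fit and 1 gained it. Most were named for a small p, a high level or a large change in the main fit. That choice favours keeping sign and call, so the count does not describe all called genes. The medians of 6 lists changed sign in some fit, among them chemokine ligands, and none of the 6 was above 0.5 or below -0.5. With 2 TLR libraries, each gene's spread there rests on 1 difference.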

Other observations

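Large families had called members in both directions, beside 31.6% higher and 29.7% lower over all tested genes. Of 222 solute carrier genes 74 were higher and 66 lower in TLR than in naive libraries, with a median log2 fold change of -0.05, near those shares. Slc19a1, the folate carrier, rose by 3.28, and Slc37a2, a sugar phosphate carrier, fell by 3.90. Of 311 zinc finger genes of the Zfp series 52 were higher and 129 lower, with a median of -0.39. Zfp831 fell by 5.59 and Zfp945 by 4.70 on the log2 scale. Of 50 Rab GTPases, which steer vesicles, 14 were higher and 14 lower, also near those shares, with Rab43 at 1.84 and Rab30 at -3.40. Of 25 lysine demethylases and methyltransferases 2 were higher and 11 lower (median -0.27), and Kdm7a fell by 2.01. Of 22 TNF receptor superfamily genes 8 were higher and 5 lower, led by Tnfrsf8, encoding CD30, with a log2 fold change of 4.89.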
